A study of Homo sapiens with 12 samples.

Results

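MDA-MB-468 is an established human triple-negative breast cancer cell line, one that lacks the oestrogen and progesterone receptors and ERBB2 amplification. The libraries labelled Combo came from such cells given 5 µM tazemetostat and 5 µM ipatasertib and collected 24 h after the joint dosing, and those labelled DMSO from cells given the vehicle, with 3 libraries (A, B and C) in each group. The comparison of the 2 groups uses 6 of the 12 libraries of the series and covers 17780 of 58735 gene entries, all those that passed a filter on low counts. The other 6 libraries came from the same cells under 10 nM docetaxel, a microtubule drug, for 8 h or 24 h, and the 24 h group serves here as a second treatment to compare with. All groups are labelled as wild-type cells of the same line. Per the labels, cells for the targeted treatment were already kept in tazemetostat or DMSO over the 5 days before the joint dosing, were seeded at 250000 per 6 cm plate and were dosed in medium with 2% FBS, whereas docetaxel was given in 10 cm plates. The labels give no medium, plate or hours for the DMSO libraries. Handling and treatment cannot be told apart where they differ, and neither can the share of each drug, since no library is labelled with a single inhibitor.

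EZH2 is the catalytic subunit of Polycomb repressive complex 2 (PRC2), which methylates histone H3 on lysine 27 and keeps developmental genes silent; tazemetostat blocks its enzyme activity. AKT is the kinase through which growth factor receptors and phosphoinositide 3-kinase (PI3K) drive growth, glucose use and survival, and ipatasertib blocks it. Active AKT phosphorylates FOXO transcription factors and keeps them out of the nucleus, so FOXO target genes, several of which feed back on PI3K signalling, are a common readout of AKT inhibition. The comparison asks what the joint inhibition does to transcription in these cells, and the question of the study includes luminal differentiation and the programme of mammary involution, in which the gland regresses once suckling ends.

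Total counts were between 29820617 and 41512254 in the 6 libraries, and values below are CPM, counts relative to the library total after scaling with TMM factors. Of the line's markers, EGFR was at 3619.5, 4112 and 3759 CPM in DMSO and 4606, 5305 and 4773 CPM in Combo. PGR had 1 count over the DMSO group and 2 over the Combo group. It was the only member of the line's 13 that did not pass the filter, so ESR1, RB1 and SMAD4, listed as low or deleted in this line, passed it. The filter has a minimum count of 10, so passing it does not show that these 3 genes were well expressed. Of the 12 tested, 2 were called higher in Combo, among them KRT18, and 5 lower, among them KRT5 and CDH1. The label was not checked further. Markers of other cell types were in part at or near 0 and in part counted. CD3D, MS4A1, EMCN, ADIPOQ and LEP had no count, PTPRC had 5 counts over the DMSO group and 18 over the Combo group, and PECAM1 had 12 and 9. The endothelial receptor KDR (from 22.2 ± 1.11 to 36.4 ± 0.626 CPM) and the fibroblast collagen COL1A1 (from 21.6 ± 0.687 to 18.0 ± 1.07 CPM) were counted in both groups. Sampling noise alone would give a chi-square near its degrees of freedom; the ratio was 3.15 to 3.77 between DMSO libraries and 6.03 to 8.98 between Combo libraries. The labels leave unsaid whether A, B and C were separate cultures. The p-values therefore rest on a spread that may be only technical.

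Promoter sequence is shown here for 5 genes whose values are given below, as the 250 bases before the start site, 5′ to 3′ on the gene's strand (RefSeq, build GRCh38.p14). Capitals mark the motif named for each gene, searched on both strands of the 300 bases held per promoter. They are a FOXO target and 2 E2F-type cell cycle genes, chosen because FOXO targets and replication genes moved in opposite directions, and 2 neighbouring matrix proteases. The latter were chosen because they differ in response and each match TGANTCA, where N is any base, at the same place.
DEPP1, chr10:44978810-44979059, minus strand, FOXO motif TGTTTAC: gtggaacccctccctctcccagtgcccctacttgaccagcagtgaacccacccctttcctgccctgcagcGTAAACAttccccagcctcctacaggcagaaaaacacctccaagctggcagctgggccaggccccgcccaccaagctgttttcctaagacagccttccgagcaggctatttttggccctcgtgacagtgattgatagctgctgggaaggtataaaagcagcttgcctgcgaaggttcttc
E2F1, chr20:33686386-33686635, minus strand, E2F motif TTTGGCGC: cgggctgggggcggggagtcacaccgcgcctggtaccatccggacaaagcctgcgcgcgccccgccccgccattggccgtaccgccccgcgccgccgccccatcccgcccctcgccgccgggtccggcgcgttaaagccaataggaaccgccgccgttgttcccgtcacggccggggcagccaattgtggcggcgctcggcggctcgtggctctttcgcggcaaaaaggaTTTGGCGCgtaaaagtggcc
MCM6, chr2:135876444-135876693, minus strand, E2F motif TTTGGCGC: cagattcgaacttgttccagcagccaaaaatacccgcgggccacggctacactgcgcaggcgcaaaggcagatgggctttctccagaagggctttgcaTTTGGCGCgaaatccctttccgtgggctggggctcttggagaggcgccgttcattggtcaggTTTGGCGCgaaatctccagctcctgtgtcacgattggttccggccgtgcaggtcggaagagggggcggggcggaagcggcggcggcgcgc
MMP10, chr11:102780629-102780878, minus strand, AP-1 motif TGANTCA: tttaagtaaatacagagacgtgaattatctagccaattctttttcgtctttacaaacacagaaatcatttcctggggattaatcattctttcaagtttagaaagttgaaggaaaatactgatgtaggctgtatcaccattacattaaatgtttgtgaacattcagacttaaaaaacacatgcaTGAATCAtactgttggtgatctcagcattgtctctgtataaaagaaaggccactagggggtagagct
MMP7, chr11:102530748-102530997, minus strand, AP-1 motif TGANTCA: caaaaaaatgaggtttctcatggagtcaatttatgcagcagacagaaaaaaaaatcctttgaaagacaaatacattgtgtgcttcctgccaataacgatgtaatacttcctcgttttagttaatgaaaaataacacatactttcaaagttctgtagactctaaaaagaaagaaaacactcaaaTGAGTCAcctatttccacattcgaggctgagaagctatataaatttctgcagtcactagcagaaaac
In DEPP1 the motif lies on the opposite strand and begins 180 bases before the start site. The E2F motif begins 20 bases before the start site in E2F1, and the first of 2 matches in MCM6 begins 152 bases before it. MMP10 and MMP7 each hold their AP-1 match 67 bases before it, but the matched letters differ at the free base, TGAATCA in MMP10 and TGAGTCA in MMP7. Among the 35116 promoters of the table, 3.42% hold the FOXO motif, 0.652% the E2F motif and 7.71% the AP-1 motif. A match describes the letters and does not show that a factor binds there.

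A large share of the transcriptome differed between the 2 groups, in both directions. With edgeR's quasi-likelihood test and a Benjamini-Hochberg adjusted p under 0.05, 5579 of the 17780 genes (31.4%) were higher in Combo than in DMSO and 5578 (31.4%) were lower. The balance was different for large changes: 2151 genes (12.1%) rose by at least 2-fold and 480 (2.7%) fell by at least 2-fold. The median log2 fold change of all tested genes was 0.01, but it differed by level. It was 0.48 for genes with a mean under 1 CPM over the 12 libraries and 0.20 between 1 and 10 CPM. Between 10 and 100 CPM it was -0.11, and at 100 CPM or more it was -0.13. The list medians below were not matched for level. In the text, a value in brackets after a gene is its log2 fold change of Combo against DMSO ± SE from edgeR, and a CPM mean is given ± SD (n = 3). In such bulk libraries fewer cells of a type and less RNA per cell cannot be told apart. Lists are described by their counts and medians only. A share near 31.4% in a direction is that of all genes, but shares differed by level too. Of genes between 10 and 100 CPM 45.8% fell and 26.1% rose, and at 100 CPM or more 51.7% fell and 25.9% rose. Between 1 and 10 CPM 17.7% fell and 40.5% rose, and under 1 CPM 6.08% fell and 34.8% rose. Lists of well expressed or of low genes are to be read beside these shares.

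**Figure D1:**
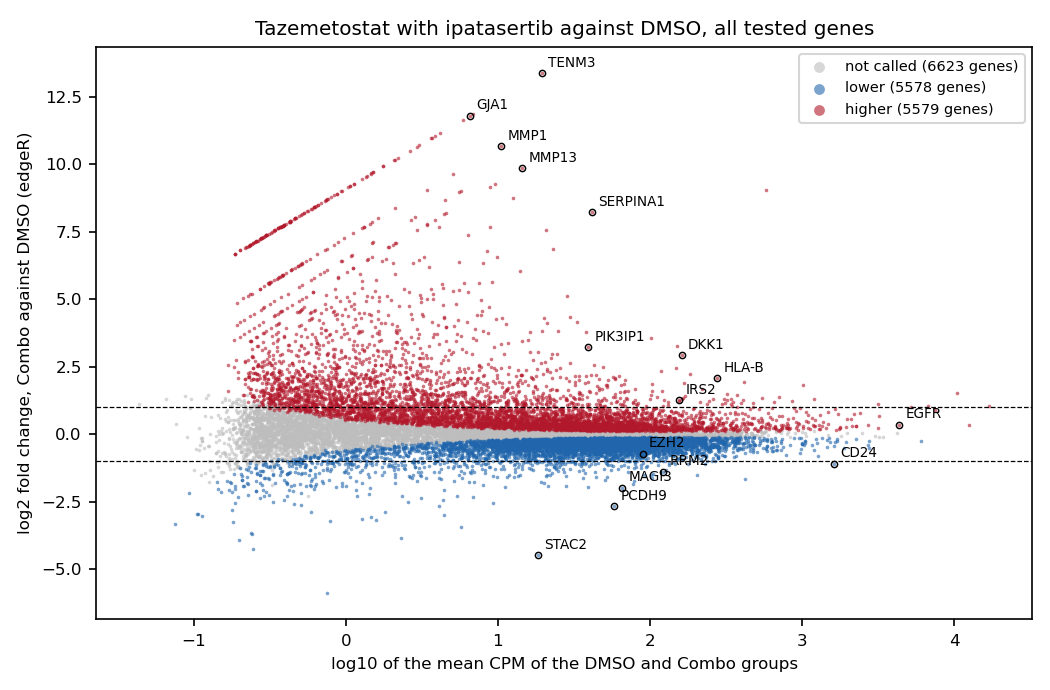
Each point is 1 of the 17780 tested genes; the x axis gives the log10 of its mean CPM over the DMSO and Combo groups and the y axis its edgeR log2 fold change of Combo against DMSO, with dashed lines at 2-fold. Large rises reach far beyond large falls and gather among genes of low mean CPM, and the slanted lines at the upper left are genes with no or few DMSO counts, whose fitted fold changes depend on the prior count.

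The largest rises were those of genes without a count, or nearly so, in the DMSO libraries. TENM3 (chromosome 4, 182143987 to 182803024 on GRCh38), which encodes a teneurin adhesion protein of the developing nervous system, had no count in DMSO and 39.2, 38.3 and 38.9 CPM in the Combo libraries, at least 1407-fold higher against a floor of 3 counts over the DMSO group. GJA1 (chromosome 6, 121435577 to 121449727), the gap junction protein connexin 43, had no DMSO count either and 12.5, 13.8 and 12.8 CPM in Combo, at least 471-fold higher. The groups were fully apart for both genes. LAMA1, the laminin alpha-1 chain, reached a mean of 5.86 CPM (at least 213-fold), AOC1, the diamine oxidase, 7.74 CPM (at least 280.4-fold), and JAKMIP2 and PRR9 rose by at least 190.3-fold and 220.1-fold. SPANXB1, a cancer-testis gene with near-identical copies and therefore uncertain, rose by at least 302-fold. TCEAL9 had 3 counts over the DMSO group and 21.0, 17.4 and 18.6 CPM in Combo, a ratio of 690.4-fold (95% counting interval 236 to 3351). The largest adjusted p among the 12 rises named by size was 8.68e-13.

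A further 4 of these 12 were matrix metalloproteases of 1 gene cluster on the long arm of chromosome 11. MMP13, collagenase 3 (chromosome 11, 102942995 to 102955734), was at 0.0230, 0.0634 and 0 CPM in DMSO and 29.6, 28.2 and 28.5 CPM in Combo, a ratio of 1044-fold (95% counting interval 357 to 5067). MMP1, interstitial collagenase, had a single DMSO count, in library A, and 21.7, 21.2 and 19.9 CPM in Combo, a ratio of 2282-fold (95% counting interval 409 to 90193). MMP3 (stromelysin-1) and MMP12 (macrophage elastase) had no DMSO count and means of 7.27 and 7.32 CPM in Combo, at least 264-fold and 266-fold higher. Other members of the cluster were chosen after their values were seen. MMP10, whose promoter is shown above, had no count in DMSO and 1.80, 1.55 and 1.24 CPM in Combo. MMP7, with a match that differs in 1 base at the same distance from its start site, stood at 12.8, 12.1 and 14.5 CPM in DMSO and 14.6, 12.7 and 14.7 CPM in Combo. It did not pass (0.09 ± 0.08, adjusted p = 0.321 by edgeR's quasi-likelihood test). MMP20, the enamel protease, fell (-2.25 ± 0.45), so neighbours within this cluster went different ways.

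The largest falls were smaller in size and concerned genes that DMSO cells expressed. STAC2 (chromosome 17, 39210536 to 39225872), an adaptor of voltage-gated calcium channels, was at 35.8, 35.9 and 33.6 CPM in DMSO and 1.76, 1.62 and 1.28 CPM in Combo (-4.49 ± 0.09). PCDH9, a protocadherin of cell adhesion, went from 97.4, 105.2 and 100.4 to 14.1, 17.1 and 16.4 CPM (-2.67 ± 0.07), and MAGI3, a scaffold protein of cell junctions, from 99.5, 111 and 104.8 to 23.2, 28.99 and 27.4 CPM (-1.98 ± 0.08). In each of these 3 genes the highest Combo library lay far below the lowest DMSO library. The sodium-chloride cotransporter SLC12A3 (-3.43), the carnitine synthesis enzyme BBOX1 (-2.66), the guanylate-binding protein GBP1 (-2.54), the hair keratin KRT38 (-2.45), ASB3 (-2.27), the transporter SLC16A14 (-2.07), the G-protein regulator RGS2 (-1.96) and gamma-glutamyltransferase GGT1 (-1.96) completed the named falls, and the largest adjusted p among them was 2.35e-11. U2AF1, which has a near-identical copy, met the rule too, but its DMSO libraries spread over 23.0, 3.65 and 7.68 CPM and its value is uncertain.

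Measured in CPM rather than in folds, the largest increases belonged to the mitochondrial genome. MT-CO1, a subunit of cytochrome c oxidase, was at 10112, 11155 and 12071 CPM in DMSO and 23378, 25221 and 20774 CPM in Combo (1.06 ± 0.10), and each of the 13 mRNAs of that genome was called higher (median 0.88). Mitochondrial genes took 4.21% ± 0.244 of the counts in DMSO and 8.49% ± 0.799 in Combo (SD, n = 3; exact permutation p = 0.1, two-sided, the smallest that 3 against 3 allow). In docetaxel libraries this share was 8.1987% to 8.9971% at 8 h and 5.002% to 7.529% at 24 h. A high mitochondrial share was therefore not particular to Combo. The 13 mRNAs had a median of 0.61 for docetaxel at 24 h against DMSO. In Combo 8 of the 13 were higher and 0 lower than under docetaxel at 24 h. EEF1A1, the elongation factor, and FTH1, the ferritin heavy chain, were the nuclear genes with the largest gains (0.33 ± 0.06 and 0.67 ± 0.06). Among the 8 largest losses in CPM were those of the luminal surface protein CD24 (from 2217 ± 15.1 to 1039.9 ± 36.2 CPM), beta-actin ACTB, keratins KRT19 and KRT5, the glycolytic enzyme GAPDH, fatty acid synthase FASN and the chaperonin subunit CCT6A. These losses lay between -1.09 (CD24) and -0.24 (ACTB) on the log2 scale. ACTB and GAPDH are often taken as references, and both fell here by edgeR's quasi-likelihood test (adjusted p = 4.23e-04 and 1.40e-06).

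Components of the PI3K and AKT pathway fell more often than they rose, and the largest changes were in regulators. Of 27 tested members 17 fell and 8 rose, with a median of -0.28. Well expressed genes as a whole also fell more often than they rose, by the shares given above. The drug's targets AKT1 (-0.32 ± 0.05) and AKT2 (-0.28 ± 0.04) were lower. The regulatory subunits of PI3K PIK3R1 (from 37.9 ± 0.805 to 17.7 ± 0.626 CPM) and PIK3R3 (from 132 ± 0.849 to 58.1 ± 1.40 CPM) fell by more than 2-fold. PIK3IP1 (chromosome 22, 31281593 to 31292534), which binds and inhibits the PI3K catalytic subunit, was at 7.72, 7.77 and 7.18 CPM in DMSO and 73.7, 65.7 and 72.7 CPM in Combo (3.22 ± 0.07). INPP4B, a phosphatase that removes a PI3K lipid product, rose from 11.1 ± 0.582 to 28.4 ± 1.77 CPM (1.36 ± 0.08). Every Combo library lay above every DMSO library for both inhibitors of the pathway. The adjusted p-values of these 6 genes were at most 1.32e-05.

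Receptor tyrosine kinases and insulin receptor substrates upstream of PI3K rose in 11 of 20 and fell in 5 (median 0.25). IRS2, the docking protein of the insulin and IGF1 receptors, was at 85.4, 98.5 and 89.6 CPM in DMSO and 190.5, 238 and 231 CPM in Combo (1.27 ± 0.09). AXL, a receptor kinase tied to mesenchymal states, rose from 1.18 ± 0.107 to 10.5 ± 0.303 CPM (3.14 ± 0.15), FGFR2 by 0.86 ± 0.08, and PDGFRA by 1.53 ± 0.19 from a mean of 1.73 CPM. EGFR, highly counted in DMSO, rose by 0.35 ± 0.08, and ERBB3, a receptor that FOXO induces, by 0.17 ± 0.05, a call that was lost with no filter on low counts. ERBB4 fell (-1.42 ± 0.09), as did the substrate IRS1 (-0.76 ± 0.11), which was chosen after its values were seen. Adjusted p-values of these calls were at most 0.00602.

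FOXO factors and genes they activate rose in 24 of 33 and fell in 7, with a median of 0.60. DEPP1, a FOXO-induced regulator of autophagy and oxidative stress whose promoter is shown above, was at 11.9, 12.4 and 13.5 CPM in DMSO and 79.3, 67.9 and 73.9 CPM in Combo (2.55 ± 0.07). GABARAPL1, an autophagosome protein, went from 28.4, 27.6 and 28.8 to 102, 102 and 98.3 CPM (1.83 ± 0.05) and PINK1, the kinase of mitochondrial quality control, from 79.4, 82.9 and 79.3 to 180.0, 182 and 188 CPM (1.19 ± 0.05). The groups did not overlap for any of the 3. The death ligand TNFSF10 rose by 1.49 ± 0.08, FOXO1 itself by 1.38 ± 0.12, and PDK4, the kinase that shuts glucose carbon out of the mitochondria, from 0.194 to 8.45 CPM; PDK4 was chosen after its values were seen. The factor FOXO3 fell slightly (-0.17 ± 0.06) and so did BCL2L11 (-0.18 ± 0.06), a FOXO target in other cells, and BCL2L11 lost its call without DMSO library B and FOXO3 without DMSO library B or Combo library A (-0.14, and -0.12 and -0.13). Of the 33 genes, 25 were also higher in Combo than in docetaxel at 24 h and 6 were lower.

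**Figure D2:**
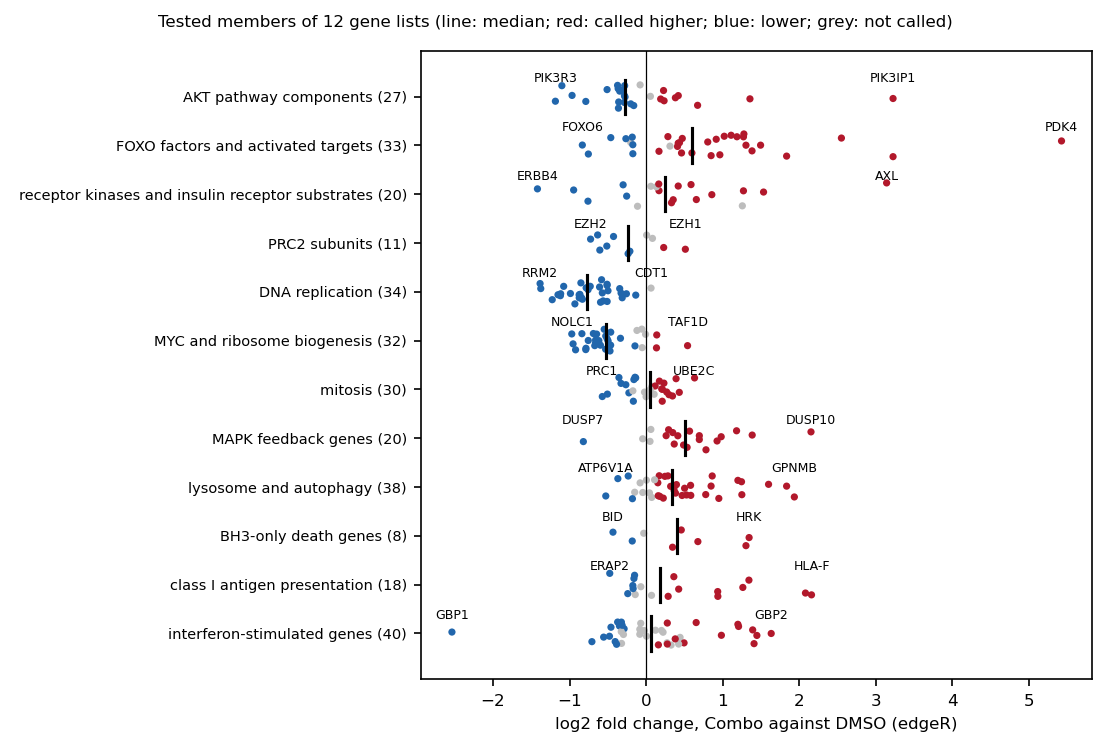
Points are the tested members of 12 gene lists, with the number in brackets, placed by their edgeR log2 fold change of Combo against DMSO; the vertical line is the list's median, and the most extreme members are named. Replication genes lie almost wholly below 0 (33 of 34 called lower), FOXO targets mostly above 0, and interferon-stimulated genes on both sides.

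The mRNAs of PRC2 and of many other chromatin enzymes were lower in Combo. EZH2 (chromosome 7, 148807383 to 148884321), the target of tazemetostat, was at 110.1, 115 and 109.6 CPM in DMSO and 69.8, 69.5 and 62.8 CPM in Combo (-0.73 ± 0.05); the drug blocks the protein, so this value does not check the label. The core subunits SUZ12 (-0.60 ± 0.06) and EED (-0.43 ± 0.06) and the accessory MTF2 (-0.51 ± 0.06) fell as well, 7 of 11 subunits in all, while 2 rose. EZH1, the second catalytic subunit, rose by 0.51 ± 0.08; it was chosen after its values were seen. Of 43 histone and DNA modifying enzymes 29 fell and 6 rose (median -0.30). DNMT1, the maintenance DNA methyltransferase, went from 1196 ± 11.5 to 736 ± 16.9 CPM (-0.70 ± 0.05) and CBX2, a reader of the PRC2 mark, fell by 0.73 on the log2 scale. Against that direction HDAC9, a class IIa histone deacetylase, rose from 8.24 ± 0.195 to 51.4 ± 4.20 CPM (2.64 ± 0.08) and BMI1, a subunit of the other Polycomb complex, from 24.9 ± 0.813 to 54.6 ± 1.81 CPM (1.13 ± 0.06). The largest adjusted p among these calls was 6.56e-06.

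Tested HOX and other developmental regulators, classic Polycomb targets, rose more often than they fell, but many members stayed at or near 0. Only 25 of 39 HOX genes passed the filter, of which 13 rose and 2 fell (median 0.37). Members could pass through the group in which they were high, so these counts do not stand for the family; HOXD1, HOXD3, HOXD4 and HOXD10 had no count in any DMSO or Combo library. HOXB9 rose from a mean of 0.114 to 1.17 CPM (3.36 ± 0.39), HOXB6 by 1.93 ± 0.24, HOXA11 by 1.55 ± 0.19 and HOXB7 from 13.0 ± 0.399 to 25.3 ± 1.06 CPM (0.96 ± 0.09). Of 49 developmental transcription factors 32 were tested, 20 rose and 7 fell. Among the 32, 1 had no DMSO count and could pass the filter only through another group. The limit given for HOX genes holds here too, so these counts do not stand for the family. TWIST1, a mesodermal factor, was at 0.276, 0.127 and 0.148 CPM in DMSO and 14.6, 14.6 and 18.3 CPM in Combo (6.34 ± 0.24), and TBX3, a T-box factor of the mammary placode, rose by 4.25 ± 0.28. The Iroquois factors IRX3 (from 313 ± 12.3 to 144 ± 6.91 CPM) and IRX5 (from 184 ± 2.08 to 83.0 ± 3.72 CPM), which DMSO cells expressed, fell, with log2 fold changes of -1.12 ± 0.05 and -1.15 ± 0.05. GATA4, FOXF1 and HAND1 were below the filter, with 0, 0 and 3 counts over the DMSO group and 15, 36 and 25 over the Combo group.

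Luminal mammary markers were divided. Of 24 tested genes 9 rose and 10 fell, 7 and 12 with library totals, and the median was -0.10. GATA3 (chromosome 10, 8045378 to 8075203), the master factor of the luminal lineage, was at 74.6, 80.9 and 71.6 CPM in DMSO and 128, 123 and 132 CPM in Combo (0.75 ± 0.05). ALDH1A3, an enzyme of luminal progenitors, rose from 239.8 ± 5.65 to 574 ± 16.0 CPM (1.26 ± 0.05) and the keratin KRT18 by 0.46 ± 0.07. In contrast FOXA1 (-0.66 ± 0.07), the ETS factor SPDEF (-1.07 ± 0.07), the mucin MUC1 (-0.59 ± 0.06) and the keratin KRT19 (-0.50 ± 0.06) fell together with CD24. ELF5, the factor of the alveolar luminal cell, stayed under 1 CPM in each DMSO and Combo library (-0.23 ± 0.31, adjusted p = 0.528). The largest adjusted p among the other calls was 2.01e-06.

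Basal and mesenchymal markers were called in both directions as well. Basal and myoepithelial genes tested numbered 21, with 12 higher and 4 lower (median 0.23). Among the 21, 1 had no DMSO count and could pass the filter only through another group. The basal keratin KRT5 was at 1606, 1661 and 1603 CPM in DMSO and 969, 882 and 956 CPM in Combo (-0.79 ± 0.05) and KRT14 did not pass (-0.08 ± 0.06, adjusted p = 0.248 by edgeR's quasi-likelihood test). Components of the hemidesmosome and its laminin rose, ITGB4 from 508 ± 20.1 to 1202 ± 40.0 CPM (1.24 ± 0.05) and LAMB3 from 129 ± 5.28 to 298 ± 17.5 CPM (1.20 ± 0.06), as did the caveolar protein CAV1 (1.17 ± 0.04) and the intermediate filament vimentin, VIM, from 43.5, 45.4 and 43.4 to 178, 147 and 157 CPM (1.87 ± 0.07). Epithelial-mesenchymal transition genes rose in 10 of 19 and fell in 3, or 5 with library totals. Of these 19, 3 had no DMSO count and could pass the filter only through another group, so the counts do not stand for the family. CDH2, N-cadherin, had no DMSO count and 4.55, 4.50 and 4.25 CPM in Combo, at least 161-fold higher. Fibronectin FN1 rose from 35.3 ± 0.940 to 108 ± 6.79 CPM (1.61 ± 0.07), and E-cadherin CDH1 fell from 121 ± 5.16 to 86.9 ± 2.01 CPM (-0.48 ± 0.05).

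Tested genes of squamous differentiation and of the matrix rose more often than they fell. Squamous genes rose in 14 of 25 and fell in 7. The list has 34 members, and 1 of the 25 tested had no DMSO count and could pass the filter only through another group. These counts therefore do not stand for the family. Involucrin IVL, of the cornified envelope, went from 1.38, 0.761 and 0.857 to 19.5, 20.1 and 20.8 CPM (4.29 ± 0.16) and the skin protease KLK5 from 659.7 ± 2.30 to 1286 ± 91.8 CPM, while the protease inhibitor PI3 (-1.75 ± 0.08) and KRT10 (-1.01 ± 0.06) fell. In the list of collagens, laminins and matrix proteases 20 of 32 rose and 6 fell (median 0.80). Of these 32, 3 had no DMSO count and could pass the filter only through another group, so the counts do not stand for the family. TIMP2, an inhibitor of metalloproteases, rose from 72.2 ± 4.72 to 265 ± 4.19 CPM (1.88 ± 0.05); LAMA4 (-1.69 ± 0.06) and the protease ADAMTS1, from 642 ± 14.4 to 206 ± 5.35 CPM (-1.64 ± 0.05), fell. Of the markers of other cells, 2 of 5 tested fibroblast genes rose and 1 fell, 4 of 6 endothelial genes rose, 1 of 4 adipocyte genes rose, and the 1 tested immune gene rose. The proteoglycan LUM had no DMSO count and a mean of 4.17 CPM in Combo (at least 152-fold), the macrophage receptor CSF1R rose from 2.73 ± 0.146 to 15.4 ± 0.224 CPM, and the endothelial factor ERG went from 1 DMSO count to a mean of 1.94 CPM, a ratio of 211-fold (95% counting interval 37.4 to 8386). The other endothelial rises were those of FLT1 (3.07 ± 0.25), CDH5 (1.89 ± 0.28) and KDR (0.71 ± 0.09), and COL1A1 fell (-0.26 ± 0.07). COL1A2 had 0 counts over the DMSO group and 9 over the Combo group, and PTPRC and PECAM1 are given above. Summed over the list, fibroblast markers were at 24.5 to 27.01 CPM per DMSO library and 29.8 to 30.3 per Combo library, endothelial markers at 22.4 to 24.96 and 44.4 to 46.02, and immune markers at 2.95 to 3.24 and 15.6 to 16.5. CSF1R, at 15.6, 15.5 and 15.2 CPM, made up nearly all of the immune sum in Combo. The part of other cells in these values was not tested.

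Mammary involution genes rose in 19 of 31 and fell in 9, with a median of 0.36. Among the 31, 1 had no DMSO count and could pass the filter only through another group. LIF, the cytokine that opens involution through STAT3, was at 35.2, 31.3 and 29.1 CPM in DMSO and 70.5, 82.3 and 93.2 CPM in Combo (1.36 ± 0.10). Its signal transducer IL6ST rose by 0.27 ± 0.06, while STAT3 itself fell from 282 ± 9.66 to 204 ± 3.25 CPM (-0.47 ± 0.05). The lysosomal protease CTSB, an effector of cell death in involution, rose from 399.5 ± 4.84 to 917 ± 27.98 CPM (1.20 ± 0.05), and LCN2, lipocalin 2, by 0.97 ± 0.07. IGFBP5, which is induced in the involuting gland, fell from 162 ± 9.21 to 82.0 ± 3.05 CPM (-0.98 ± 0.05), and IL6 stayed under 0.3 CPM in each DMSO and Combo library. PIK3R1 and PIK3R3, counted above among PI3K subunits, belong to the list too and fell. The milk and secretory list had 14 tested genes, of which 6 rose and 3 fell: MFGE8, a milk fat globule protein, rose by 0.98 ± 0.06 and MUC1 fell, while the milk genes CSN1S1, CSN2 and LALBA had no count in any DMSO or Combo library. Adjusted p-values were at most 3.21e-04 for the calls of this paragraph.

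Genes of the BCL2 family were called in both directions. Of 8 BH3-only genes, which start mitochondrial cell death, 5 rose and 2 fell (median 0.40). BMF (chromosome 15, 40087890 to 40108892), which is freed when cells detach and has been tied to involution, was at 12.1, 11.5 and 13.0 CPM in DMSO and 19.7, 19.9 and 19.1 CPM in Combo (0.68 ± 0.08). BBC3 rose from 10.6 ± 0.391 to 26.3 ± 1.13 CPM (1.30 ± 0.07) and HRK from 12.4 ± 0.221 to 31.6 ± 1.48 CPM (1.34 ± 0.08), both by more than 2-fold, while BID fell (-0.43 ± 0.05). Of 7 protective or pore-forming members 5 fell and 2 rose: BCL2 (-0.76 ± 0.10) and the pore protein BAK1 (-0.37 ± 0.06) fell and BAX (0.34 ± 0.06) rose. MCL1 was a weak call (-0.13 ± 0.04, adjusted p = 0.0174 by edgeR's quasi-likelihood test) that was lost with at least 1 CPM asked for in 3 libraries (-0.10), without DMSO library A or B (-0.12 each) and without Combo library A (-0.11) or C (-0.12). Death receptors and caspases fell in 12 of 24 and rose in 7, among the latter the ligand TNFSF10, the receptor TNFRSF21 (1.24 ± 0.06) and GSDME, the gasdermin cut by caspase-3, from 1.13 ± 0.149 to 7.58 ± 0.921 CPM (2.74 ± 0.17); CASP2 fell (-0.68 ± 0.07). BMF and HRK were also higher in Combo than in docetaxel at 24 h, by 0.92 and 1.27 (adjusted p at most 6.99e-10). Of the 8 BH3-only genes 3 were higher than under docetaxel and 3 lower, among the latter BID (-0.63) and BCL2L11 (-0.18), with a median of -0.10.

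**Figure D3:**
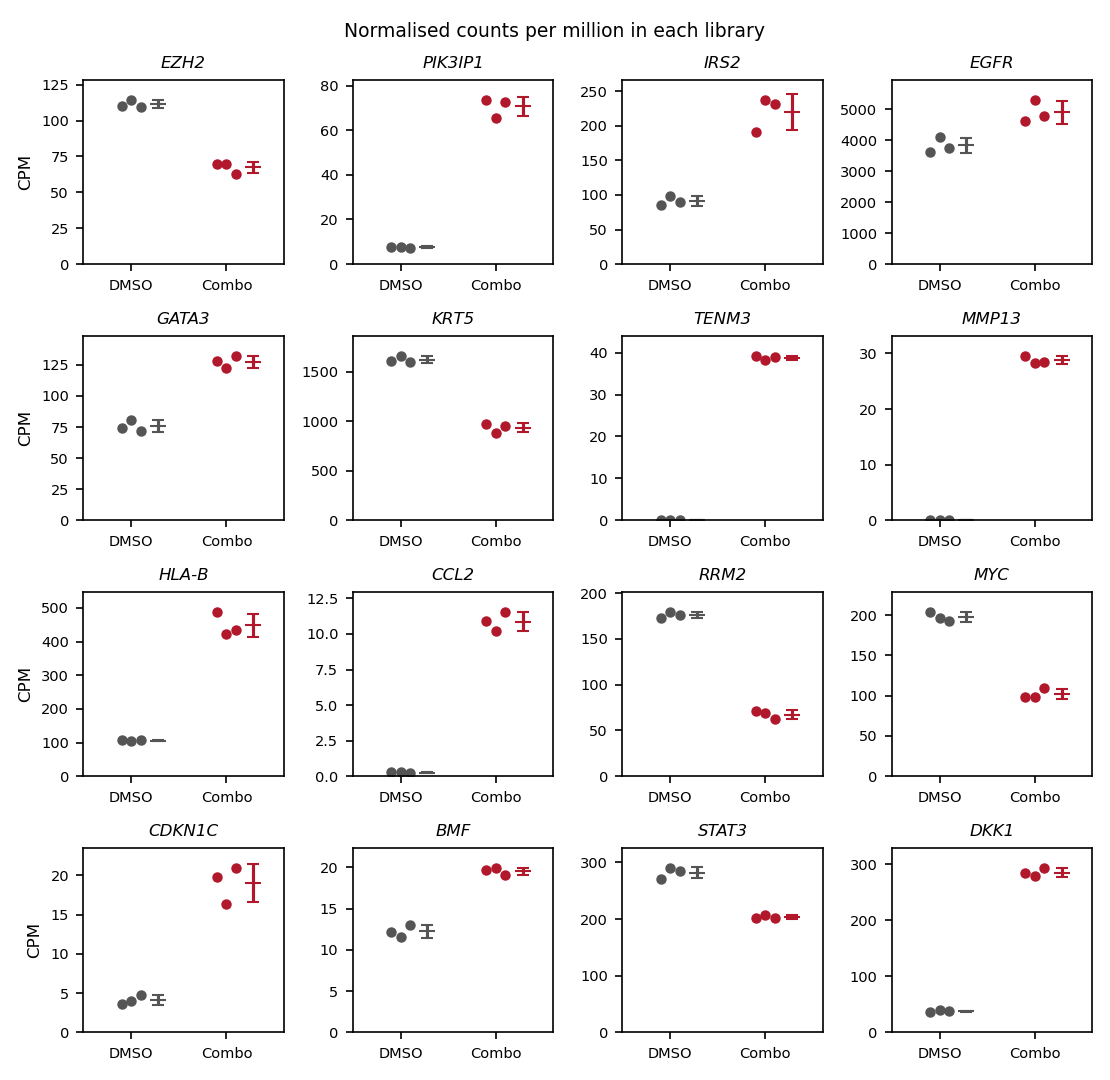
Points are the TMM-scaled CPM of each DMSO and Combo library for 16 genes, with the mean and SD (n = 3) beside them; each panel has its own axis, from 0. In all 16 genes the 3 Combo libraries lie on one side of the 3 DMSO libraries, with the smallest relative step in EGFR and a rise from near 0 in TENM3, MMP13 and CCL2.

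The heavy chains of antigen presentation named here rose, while interferon-stimulated genes were called in both directions. The class I heavy chain HLA-B (chromosome 6) was at 106, 104 and 107 CPM in DMSO and 488, 422 and 434 CPM in Combo (2.08 ± 0.05). HLA-C (1.26 ± 0.06), HLA-F (2.16 ± 0.08) and the light chain B2M, from 361 ± 6.97 to 690.1 ± 54.7 CPM (0.93 ± 0.06), rose as well; the HLA genes are alike in sequence and their counts may be shared. Of the 18 genes of the class I list 9 rose and 6 fell (median 0.18). Of 13 class II genes 8 passed the filter and 7 of these rose. Members such as HLA-DRB1, HLA-DRA and HLA-DQB1, with 0, 0 and 1 counts over the DMSO group, passed only through the Combo group, so this count does not stand for the family. HLA-DRB1 had no DMSO count and a mean of 0.916 CPM in Combo (at least 33.3-fold), HLA-DPA1 went from 0.0533 to 1.53 CPM and HLA-DMA, which loads peptides, from 3.22 ± 0.306 to 7.18 ± 1.01 CPM (1.15 ± 0.14). The invariant chain CD74 was below the filter, with 5 counts over the DMSO group and 35 over the Combo group. The largest adjusted p among these was 4.01e-07.

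Interferon-stimulated genes rose in 13 of 40 and fell in 12, or 12 and 13 with library totals, and their median was 0.06. GBP2 (1.63 ± 0.08), IFIT3 (1.41 ± 0.11), HERC5 (1.39 ± 0.12) and IFIT1 (1.20 ± 0.14) rose, whereas GBP1, a neighbour of GBP2 in the guanylate-binding protein cluster, went from 14.4, 16.1 and 16.8 to 2.51, 3.01 and 2.62 CPM. Among 13 sensors of nucleic acids 4 rose and 5 fell: IFI16, a sensor of nuclear DNA, went from 3.87, 3.71 and 4.17 to 35.3, 31.6 and 31.1 CPM (3.06 ± 0.10), AIM2 had 2 DMSO counts and 1.24, 1.004 and 1.37 CPM in Combo, a ratio of 65.6-fold (95% counting interval 17.7 to 548), TMEM173 (STING) rose by 0.60 ± 0.06, and the RNA editor ADAR fell (-0.50 ± 0.06).

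Among 25 inflammatory cytokines and feedback genes of NF-kB, 12 rose and 6 fell (median 0.49). The monocyte chemokine CCL2 was at 0.299, 0.285 and 0.207 CPM in DMSO and 10.9, 10.2 and 11.5 CPM in Combo (5.33 ± 0.20). IL18 rose from 19.1 ± 1.80 to 52.0 ± 2.78 CPM (1.44 ± 0.07) and the macrophage growth factor CSF1 from 29.8 ± 0.930 to 72.3 ± 2.16 CPM (1.28 ± 0.06). Of 18 complement and acute phase genes 7 rose and 4 fell. SERPINA1 (chromosome 14, 94376747 to 94390693), the antitrypsin of the acute phase, went from 0.276, 0.222 and 0.325 to 91.3, 76.6 and 80.9 CPM (8.21 ± 0.13). The complement regulators SERPING1 (1.95 ± 0.12) and CD55 (1.11 ± 0.06) rose too. CCL2, IL18 and CSF1 were higher in Combo than in docetaxel at 24 h (4.96, 1.04 and 1.34), while of the whole cytokine list 9 were higher and 11 lower than under docetaxel.

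DNA replication genes fell almost without exception, while mitotic genes did not move one way. Of 34 replication genes 33 fell and none rose, with a median of -0.77; CDT1, named because it was the exception, did not pass (0.06 ± 0.05, adjusted p = 0.319 by edgeR's quasi-likelihood test). RRM2, a subunit of ribonucleotide reductase, was at 173, 179 and 176 CPM in DMSO and 71.2, 68.7 and 62.4 CPM in Combo (-1.38 ± 0.05). The helicase loader CDC6 (-1.15 ± 0.05), MCM10 (-1.38 ± 0.06), a factor of origin firing, and the helicase subunit MCM6, whose promoter is shown above and which went from 201, 205 and 197 to 97.6, 90.7 and 89.7 CPM (-1.12 ± 0.05), fell by at least 2-fold. Among 20 genes of the G1 phase 11 fell and 6 rose. The factor E2F1, also shown above, went from 113, 109 and 109 to 44.8, 44.8 and 47.5 CPM (-1.27 ± 0.05) and cyclin CCNE2 from 13.1, 13.2 and 11.3 to 3.68, 3.43 and 3.14 CPM (-1.87 ± 0.10). The inhibitors CDKN1A (from 40.6 ± 2.45 to 99.8 ± 3.65 CPM) and CDKN1C (from 4.14 ± 0.586 to 19.0 ± 2.42 CPM) rose by 1.30 ± 0.06 and 2.21 ± 0.12, as did cyclin CCND1 (0.69 ± 0.06), and CDKN2A did not pass (-0.08 ± 0.05, adjusted p = 0.23 by the same test).

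Of 30 mitotic genes 12 rose and 10 fell, and 10 rose and 11 fell with library totals. UBE2C, which targets cyclins for destruction, rose by 0.63 ± 0.06, the centromere histone CENPA by 0.43 ± 0.05 and CCNB2 by 0.39 ± 0.06, while CCNA2, the cyclin of S phase, fell (-0.51 ± 0.05). MKI67 was at 201, 220.4 and 223 CPM in DMSO and 177, 213 and 181 CPM in Combo, with overlapping groups (-0.17 ± 0.08, adjusted p = 0.0512 by edgeR's quasi-likelihood test); it was called in 7 settings, among them without DMSO library A (-0.21) and without Combo library B (-0.26). Replication-dependent histone genes, which are poorly captured by poly(A) selection, rose in 3 of 15 and fell in none, or 2 with library totals. In contrast with docetaxel at 24 h, 14 of the 15 were lower in Combo, with a median difference of -1.54. The list's median against DMSO was 1.77 under docetaxel at 24 h and 0.10 in Combo, so the difference lay in a rise under docetaxel. Targets of p53 rose in 15 of 25 and fell in 5, in a line whose p53 is mutant: GADD45A rose by 0.92 ± 0.05 and PERP by 0.96 ± 0.04.

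MYC fell, as did most genes of ribosome production, aminoacyl-tRNA synthetases and amino acid transporters. MYC was at 204, 196 and 193 CPM in DMSO and 97.9, 98.7 and 109.6 CPM in Combo (-0.95 ± 0.05). In its list, which adds genes of ribosome biogenesis, 25 of 32 fell and 3 rose (median -0.53); those that fell include the nucleolar proteins NOLC1 (-0.97 ± 0.05), TSR1 (-0.92 ± 0.05) and dyskerin DKC1 (-0.69 ± 0.04). None of the 32 was higher than under docetaxel at 24 h and 29 were lower. Aminoacyl-tRNA synthetases fell in 15 of 20, among them VARS (-0.77 ± 0.05), and amino acid transporters in 14 of 23, among them SLC6A14 (-1.57 ± 0.07), whereas SLC43A1 rose (1.44 ± 0.11). The mRNAs of cytosolic ribosomal proteins went the other way, with 60 of 78 higher and 2 lower and a median of 0.28, for example RPL3 (from 1586 ± 30.2 to 2344 ± 143 CPM, 0.56 ± 0.06). Many of these genes have pseudogene copies. This rise was not particular to Combo: docetaxel at 24 h had a median of 0.34 against DMSO in the same list. In Combo 9 of the 78 were higher and 23 lower than under docetaxel at 24 h. The part of the larger share of highly counted genes in Combo (24.7% of counts in the top 100 genes against 20.1% in DMSO) in these values was not tested. Docetaxel libraries were at 24.4% to 25.5% at 8 h and 21.4% to 23.2% at 24 h.

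MAP kinase signalling induces its own inhibitors, and of 20 such feedback genes 16 rose and 1 fell (median 0.51). The phosphatases DUSP10 (from 4.87 ± 0.180 to 21.6 ± 0.557 CPM) and DUSP5 (from 36.9 ± 0.844 to 83.6 ± 5.22 CPM) rose by 2.15 ± 0.09 and 1.18 ± 0.06, and the ETS factors ETV4 and ETV5 by 0.98 ± 0.06 and 0.93 ± 0.07. Ligands of the EGF family rose in 6 of 7 tested, among them BTC (from 3.29 ± 0.459 to 6.72 ± 0.452 CPM) and HBEGF (from 5.06 ± 0.119 to 7.90 ± 0.667 CPM). Of 24 immediate early genes 13 rose and 4 fell. The AP-1 subunit FOSL1 was at 8.73, 8.41 and 8.92 CPM in DMSO and 35.5, 37.1 and 37.7 CPM in Combo (2.08 ± 0.08), JUN rose from 188 ± 9.52 to 322 ± 39.1 CPM (0.77 ± 0.06) and KLF4 from 10.2 ± 0.788 to 25.2 ± 0.964 CPM (1.31 ± 0.09), while FOS did not pass (0.06 ± 0.10, adjusted p = 0.638 by edgeR's quasi-likelihood test). Any link between these values and the AP-1 match of the MMP10 and MMP7 promoters was not tested, and the values do not show binding.

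Genes of developmental signalling were called in both directions. DKK1 (chromosome 10, 52314296 to 52318042), a secreted inhibitor of WNT signalling, was at 36.9, 39.1 and 37.8 CPM in DMSO and 284, 278 and 293 CPM in Combo (2.91 ± 0.06). WNT5A (1.38 ± 0.08), WNT5B (2.98 ± 0.17) and the receptor FZD8, from 0.691 ± 0.0636 to 14.9 ± 1.38 CPM (4.41 ± 0.15), rose as well, within a list of 34 in which 13 rose and 14 fell. Among the 34, 1 had no DMSO count and could pass the filter only through another group. In the list of TGF-beta, BMP and ID genes 14 of 28 rose and 8 fell: the BMP antagonist NOG (3.99 ± 0.19) and the activin subunit INHBA (1.82 ± 0.10) rose, while ID2, an inhibitor of differentiation factors, fell from 29.3, 28.9 and 31.3 to 9.32, 8.65 and 8.37 CPM (-1.76 ± 0.08). Notch pathway genes rose in 11 of 21 and fell in 5, with the target HEY2 higher by 2.33 ± 0.21 and the coactivator MAML1 lower (-0.58 ± 0.06). Among 21 targets of YAP and SRF 8 rose and 8 fell, and with library totals 7 and 9. ANKRD1 rose from 4.84, 5.61 and 4.93 to 71.1, 69.8 and 71.0 CPM (3.79 ± 0.08) and CTGF from 179 ± 16.4 to 436 ± 24.8 CPM (1.28 ± 0.07). For the named genes of this paragraph adjusted p was at most 6.83e-09.

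Glycolytic and fatty acid genes fell more often than they rose, and lysosomal genes rose more often than they fell. Glycolytic genes fell in 12 of 23 and rose in 4 (median -0.25). Of all tested genes with a mean of 100 CPM or more, 51.7% fell and 25.9% rose. The hexokinase HK2, an AKT-responsive enzyme, went from 70.7, 76.0 and 71.2 to 34.5, 41.2 and 38.2 CPM (-0.94 ± 0.06), and PGAM1 (-0.82 ± 0.05) and PGK1 (-0.63 ± 0.05) fell, whereas the glucose transporter SLC2A3 rose from 1.58 ± 0.140 to 6.37 ± 0.804 CPM. Genes of fatty acid synthesis fell in 10 of 18 and rose in 5: FASN (-0.50 ± 0.06), ACLY (-0.53 ± 0.05) and ELOVL5 (-0.62 ± 0.05) were lower and ELOVL6 (1.25 ± 0.07) and ACSS2 (0.44 ± 0.04) higher. Sterol genes rose in 12 of 27 and fell in 8, with the regulators SREBF1 (-0.55 ± 0.05) and INSIG2 (0.73 ± 0.06) going apart and HMGCS1 lower (-0.22 ± 0.05). Of 38 lysosome and autophagy genes 27 rose and 4 fell (median 0.34). GPNMB, a lysosomal glycoprotein, was at 171, 180.4 and 165 CPM in DMSO and 666, 639 and 669 CPM in Combo (1.94 ± 0.05), and the cathepsin CTSF rose from 51.1 ± 2.41 to 155 ± 10.4 CPM (1.599 ± 0.06).

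Genes of the stress programmes were called in both directions. Of 27 genes of the integrated stress response and serine synthesis 10 rose and 12 fell. GDF15, a stress cytokine, went from 21.9, 21.4 and 21.6 to 92.2, 85.9 and 100.3 CPM (2.10 ± 0.07), and NUPR1 (1.21 ± 0.07), the phosphatase subunit PPP1R15A (1.30 ± 0.07) and ATF4 (0.29 ± 0.06) rose, while the serine synthesis enzyme PSPH fell from 469 ± 2.24 to 266 ± 5.92 CPM (-0.82 ± 0.05). Genes of the unfolded protein response rose in 5 of 19 and fell in 8, with small changes such as HSPA5 (0.24 ± 0.05) and PDIA6 (-0.28 ± 0.05). NRF2 targets fell in 13 of 23 and rose in 4: TXNRD1 (-0.74 ± 0.05) and AKR1C2 (-0.92 ± 0.08) fell and the ferritin light chain FTL rose from 193 ± 2.87 to 432 ± 27.2 CPM (1.16 ± 0.06). Hypoxia-inducible genes rose in 8 of 21 and fell in 8, with the vasoactive peptide ADM higher by 1.82 ± 0.07 and PDK1, the kinase of pyruvate dehydrogenase, lower (-0.97 ± 0.06).

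**Figure D4:**
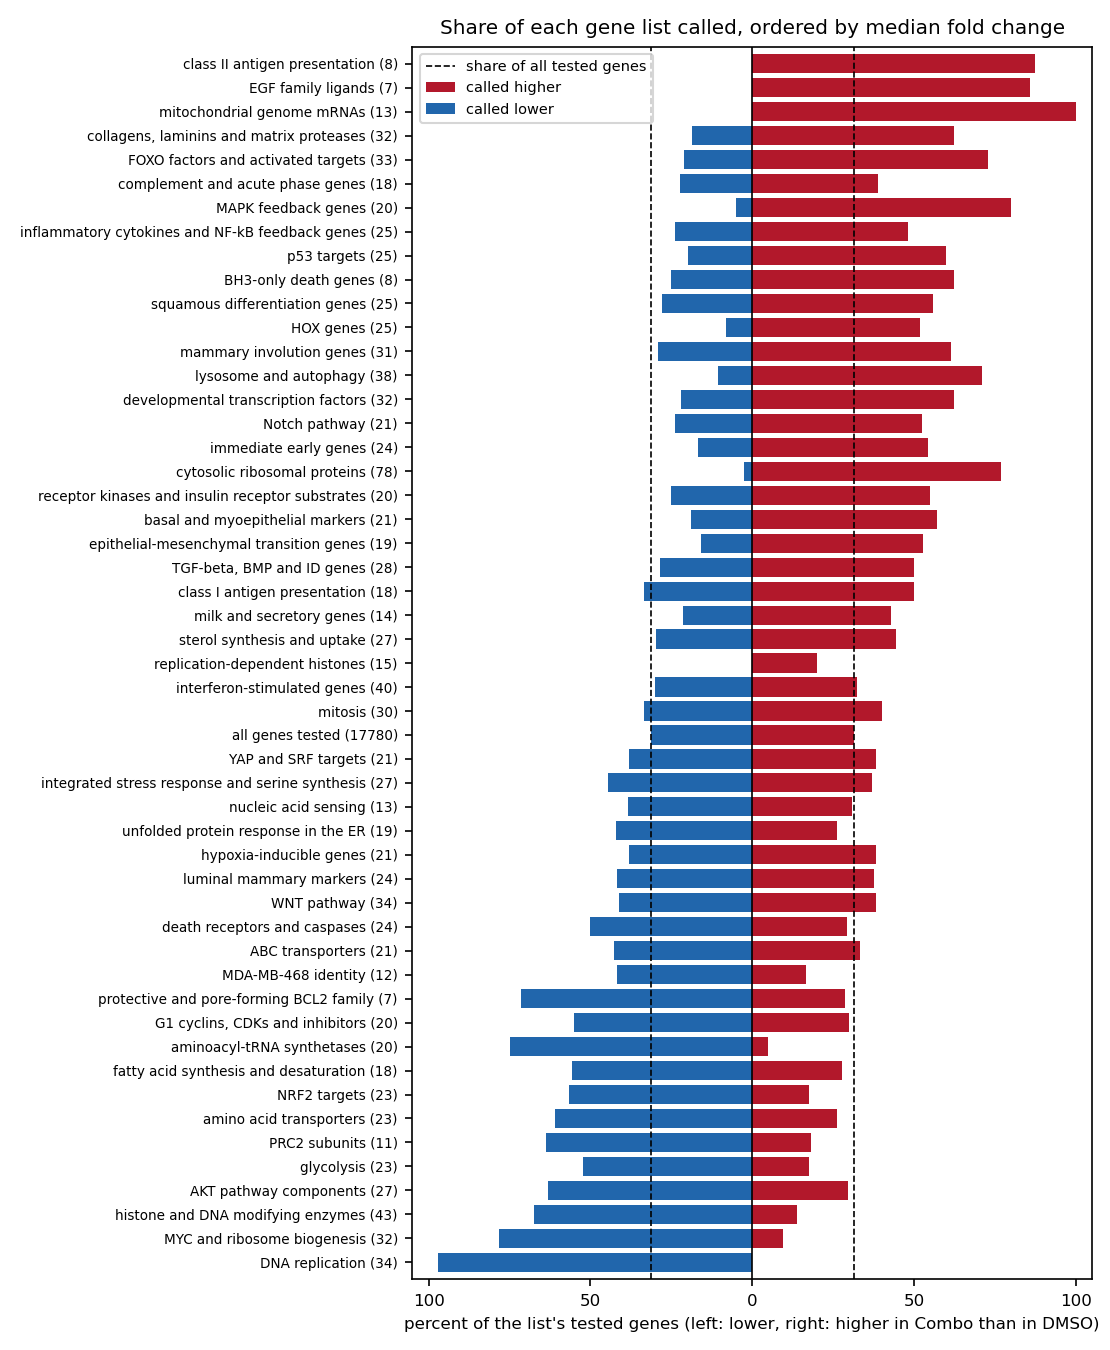
Bars give the percent of each list's tested genes (number in brackets) called higher, to the right, or lower, to the left, in Combo than in DMSO, for lists with at least 7 tested genes, ordered by median log2 fold change; dashed lines mark the 31.4% of all tested genes called in each direction. Replication genes, MYC with ribosome biogenesis and chromatin enzymes stand at the bottom, and mitochondrial mRNAs and EGF family ligands near the top. The class II bar, at the top, holds members that passed the filter only through Combo, and its place is not a result.

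Large rises were most frequent among genes of low level and among long noncoding RNAs. Of genes with a mean under 1 CPM over the 12 libraries 30.4% rose by at least 2-fold, against 17.3% between 1 and 10 CPM, 3.02% between 10 and 100 CPM and 1.98% at 100 CPM or more. A total of 129 tested genes had no DMSO count and none had no Combo count, and more genes had a count in Combo libraries (26286 ± 152) than in DMSO libraries (24419 ± 543; SD, n = 3, exact permutation p = 0.1). The docetaxel 24 h libraries A, B and C had 26031, 25038 and 26351 genes with a count, so a high number was not particular to Combo. Low genes can pass the filter through the group where they are high, so these shares are a description. Of 954 lincRNA genes 317 rose and 97 fell, 207 of them rising by at least 2-fold (21.7%), against 1582 of 13953 protein-coding genes (11.3%). AL365184.1 (chromosome 1, 240763382 to 240776044) and LINC02582 had no DMSO count and means of 13.7 and 11.7 CPM in Combo, at least 497-fold and 425-fold higher, and AC005394.2, AC243960.3 and AC207130.1 rose by at least 82.0-fold, 44.9-fold and 42.9-fold. The largest noncoding falls were those of AC114550.3 (-3.18), LINC01447 (-3.07), AC114550.1 (-2.36), LINC02167 (-2.31) and AC073046.1 (-2.05). Whether the counting used strand is not given in the sources used here, so antisense genes and their partners cannot be told apart.

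Genes that rose by at least 2-fold were neighbours in some places. The windows named here were picked because their shares were among the largest. Only tested genes are counted, and genes silent in DMSO could pass the filter only through a group where they were high. These shares are therefore a description. Among 872 windows of 1 Mb with at least 6 tested protein-coding genes, all 7 rose in the window from 141000001 to 142000000 on chromosome X, which holds the near-identical SPANX genes, MAGEC1 and LDOC1. All 6 rose between 152000001 and 153000000 on chromosome 1, the epidermal differentiation complex, with IVL, FLG, TCHH, TCHHL1, CRCT1 and S100A11. Of 7 genes between 74000001 and 75000000 on chromosome 4 there were 5 that rose, the EGF family ligands BTC and EPGN, the chemokines CXCL2 and CXCL3, and PARM1. Falls of at least 2-fold took 4 of 8 genes between 36000001 and 37000000 on chromosome 17, 1 of them the near-identical TBC1D3G, and 3 of 7 between 46000001 and 47000000 on chromosome 3, the latter the chemokine receptors CCR1, CCR2 and CCR3.

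Compared with docetaxel at 24 h, the Combo libraries were higher in 5709 genes (32.1%) and lower in 5631 (31.7%). This contrast shares the Combo libraries with the one above and is given to show where the 2 treatments differ. The first principal component, 68.1% of the variance, set the 3 Combo libraries apart from the other 9. Receptor kinases were higher in Combo than under docetaxel in 14 of 20 and lower in 3, lysosomal genes higher in 26 of 38 and lower in 3, and matrix genes higher in 21 of 32 and lower in 5. For the matrix list the limit of the filter given above holds here too. Replication genes were lower in 30 of 34 and higher in 3, a median difference of -0.53. Against DMSO, the receptor kinase list had a median of -0.40 under docetaxel at 24 h and 0.25 in Combo. Its difference thus lay in part in lower values under docetaxel. The same 2 medians were 0.04 and 0.34 for lysosomal genes, -0.11 and 0.80 for matrix genes, and -0.27 and -0.77 for replication genes. PIK3IP1 (3.24), DKK1 (1.92), HLA-B (1.81), SERPINA1 (8.98) and GPNMB (1.82) were higher, and KRT5 (-0.79), ID2 (-2.08) and STAC2 (-3.96) lower, the largest adjusted p being 5.42e-12. For STAT3 (-0.05, adjusted p = 0.396) and IGFBP5 (-0.08, adjusted p = 0.221) no difference from docetaxel was called by that test, which does not show that the treatments act alike on them.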

How the data were processed

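Poly(A) RNA of MDA-MB-468 cells was sequenced in 12 libraries. The authors deposited whole-number counts per gene symbol for each library; per the submitters' processing notes, the tools were fastp, HISAT2 2.0.5 and DESeq2, on hg38. Which program counted the reads, on which annotation and strand, is not given in the sources used here. Of 58735 entries 58708 matched GENCODE release 29 (GRCh38), and 27 date-like entries took up to 0.204% of the counts.

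edgeR 4.0.16 (R 4.3.3) was run on the 12 libraries with group means, filterByExpr with a minimum count of 10, TMM factors of 0.917 to 1.05 and 8 residual degrees of freedom, giving a biological coefficient of variation of 5.59%. Calls use its two-sided quasi-likelihood test with Benjamini-Hochberg adjusted p under 0.05 over 17780 genes; ± after a log2 fold change is an approximate SE, the fold change over the square root of F, and ± after CPM an SD (n = 3). The script was tested on simulated data. Genes with no DMSO count get a lower bound from a floor of 3 counts over the group, those with 1 to 3 a 95% interval of the ratio, both for counting error only. The list members and 54 lists were chosen with earlier results of these data known. Genes named are the 12 largest rises and falls in protein-coding genes (minimum mean 5 CPM, no overlap of libraries), the 8 largest in CPM, 5 noncoding of at least 1 CPM each way, up to 4 members per list with the smallest adjusted p and 40 fixed genes (268 in all); others were chosen after their values were seen, and some genes that met the rule are not reported here. A comparison of promoter motifs between gene sets is void: RefSeq promoters were found for 75.6% and 74.7% of the protein-coding genes at least 2-fold higher and lower. Alternatives were other scalings and filters, DESeq2 1.42.0, the 2 groups alone, a replicate block and leaving out each library.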

Additional observations from a re-analysis of the deposited data

How the results depend on the processing

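The counts of genes called higher and lower, in both comparisons, stayed within 1.5 times of the main value in all settings run, with 1 exception: 297 genes in place of 480 fell by at least 2-fold when at least 1 CPM in 3 libraries was asked for, a filter that tests 14816 genes. Library totals in place of TMM shifted the median of all genes to -0.03 and gave 5170 higher and 6013 lower; DESeq2 gave 5434 and 5311. Leaving out 1 of the 6 libraries gave 5185 to 5363 higher and 5066 to 5325 lower. The letters A, B and C do not pair the libraries: deviations of same-lettered DMSO and Combo libraries correlated at 0.001, 0.003 and -0.017, and the replicate block gave 5586 higher and 5632 lower. Of 268 named genes 257 kept their direction and call in every setting. The named gene FOS, not called, turned to -0.014 without DMSO library B and -0.018 without Combo library C, within -0.018 to 0.113 over the 6 libraries left out in turn; the cause was not tested. BCL2L11, ERBB3, FOXO3, HIST1H2BG, HIST2H2BE, IL6, KRT14, MCL1, MKI67 and PDGFRB crossed the threshold in at least 1 setting with the same direction. With windows of 500 kb, 6 of 8 tested genes on chromosome 19 (5 PSG genes and CD177) and 5 of 7 in the MMP cluster rose by at least 2-fold. These windows too were picked by their share, under the same limit of the filter. Depth limits genes under 1 CPM most.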

Other observations

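A pseudogene went from a low to a high level. FKBP9P1 (chromosome 7, 55681074 to 55713252), a transcribed copy of the prolyl isomerase gene FKBP9, was at 2.42, 1.90 and 2.16 CPM in DMSO and 1161, 1137 and 1165 CPM in Combo, a log2 fold change of 9.04 ± 0.08 (adjusted p = 1.95e-28 by edgeR's quasi-likelihood test). It is not protein-coding, so the naming rule passed over it, and it was chosen after its values were seen. Its parent FKBP9, elsewhere on chromosome 7 at 32957404 to 33006931, stood at 139, 148 and 144 and 144, 153 and 150.4 CPM and did not pass (0.06 ± 0.05, adjusted p = 0.302 by the same test); reads of such copies may be shared between them. Neighbouring entries went various ways. The pseudogene AC091812.1, beside it, rose from a mean of 0.0252 to 5.84 CPM, VOPP1 rose from 596 to 1177 CPM (0.98 ± 0.05) and LANCL2 fell (-0.38 ± 0.05), while PSPHP1 did not pass (0.02 ± 0.07). The difference of Combo from docetaxel at 24 h was 9.15 for FKBP9P1.

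Other genes that moved far from a middle level were L1CAM, a neural adhesion protein, from 15.2, 16.8 and 15.5 to 179, 192 and 194 CPM (3.58 ± 0.07), and the secreted protease PRSS23, from 28.4, 28.3 and 28.3 to 280.1, 268 and 271 CPM (3.27 ± 0.06). IL22RA2, the soluble decoy receptor of interleukin-22, fell from 3.94, 4.34 and 4.70 to 0.341, 0.227 and 0.327 CPM (-3.84 ± 0.20). All 3 were chosen after their values were seen, and the largest adjusted p among them was 9.25e-14. Among ABC transporters, which export drugs and lipids, 7 of 21 rose and 9 fell: ABCA5 rose from 4.87 ± 0.273 to 25.5 ± 2.45 CPM (2.38 ± 0.12) and ABCC3 from 25.7 ± 1.08 to 51.6 ± 1.94 CPM, while the peroxisomal ABCD3 (-0.69 ± 0.06) fell. The lipase LPL, listed among adipocyte markers, had 1 DMSO count and 2.72, 2.33 and 2.55 CPM in Combo, a ratio of 276-fold (95% counting interval 49.1 to 10953), while ADIPOQ and LEP had no count in any DMSO or Combo library.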
